A study of Mus musculus with 12 samples.

Results

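The Wnt ligands and their Frizzled receptors were followed through the first hours after wounding of mouse skin. They were the probe sets whose RefSeq accession matched a mouse gene symbol beginning Wnt or Fzd, or one of 12 further names or prefixes for Wnt modulators. The rule found 29 of the 1246 probe sets in the deposited table, for 28 of its 909 named genes. They were 19 Wnt ligands, which are all 19 in the gene table used for names, and 10 probe sets for 9 of the 10 Frizzleds. Fzd9 was not among them, and Fzd10 was covered by a pair of probe sets, s_at and x_at. No probe set carried a Sfrp, Frzb, Dkk, Dvl, Axin, Tcf7, Lef1, Porcn, Lrp5, Lrp6, Ctnnb1 or Wif1 name, so secreted inhibitors, co-receptors and intracellular transducers of the pathway were not analysed here. The 6 probe sets with the suffix s_at, x_at or a_at (Wnt5a, Wnt10b, Fzd3, Fzd5 and both for Fzd10) may take signal from related transcripts and are uncertain on that account.

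The series holds 12 microarray samples of total RNA, with titles beginning B6. They are 4 non-wounded samples, 1 labelled 0 h after wounding, 2 at 30 min, 4 at 2 h and 1 at 4 h. No sample carries an allele, transgene or agent in its labels, and age and sex are not stated in the sources used here. The labels call every sample dendritic epidermal T cells, the resident γδ T cells of mouse epidermis, whereas the series' design text describes RNA of whole epidermis, resting or wounded, taken to find early responses of keratinocytes. Without a wound, the log2 value was 12.08 ± 0.27 (SD, n = 4) for Lgals7, a galectin of keratinocytes, and 7.86 ± 0.63 for Cd207, the langerin of Langerhans cells. Among T cell markers it was 2.38 ± 0.12 for Klrk1, which encodes the receptor NKG2D of these T cells, 5.09 ± 0.29 for Il2rb and 4.77 ± 0.22 for Cd2. Dcn, a dermal fibroblast marker, was at 4.53 ± 0.21. Levels of different probe sets cannot be ranked, so these values do not settle which description holds.

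Wnt proteins are secreted, lipid-modified growth factors. They bind a Frizzled receptor together with a co-receptor, which either stabilises β-catenin and switches on genes through TCF/LEF factors (the canonical route) or acts on cell polarity and movement without β-catenin. In skin, Wnt signals from keratinocytes and dermis start hair follicles and keep basal keratinocytes and follicle stem cells dividing, and they have been followed in wound repair and in the formation of new follicles in wounds.

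The samples numbered 1 in the titles, 1 in each of the 5 groups, stood apart from the 7 numbered 2 to 4. Over all probe sets their values had an SD of 1.55 to 1.85 on the log2 scale, against 2.19 to 2.30 in the others. Pearson correlations over probe sets were 0.967 to 0.995 among the samples numbered 2 to 4 and 0.869 to 0.938 between the sets. The 0 h and 4 h samples and 1 of the 2 at 30 min belong to the set numbered 1. The results the text turns on are therefore also given in one or more other ways, with the replicate number as a block, within the numbers 2 to 4 alone, or after all samples were brought to a common median and SD (called scaling below), and the other differences come from all samples together. Scaling moved the median 30 min difference over all probe sets from 0.04 to -0.09 and the median 2 h difference from 0.03 to -0.06, so small differences are read against those medians.

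The promoter table from RefSeq (build GRCm38.p6) held 23 windows for 20 of the 28 genes, each running from 250 bases before a transcript start to 50 after. These windows were rich in GC: 22 of the 23 lay above the median of 52.7% over all 32851 windows, and their own median was 71.3%, with a median of 29 CpG dinucleotides against 7. The GC box GGGCGG, bound by SP and KLF factors, was searched on both strands and occurred in 18 of the 23 windows and in 35.7% of all windows. The AP-1 letters TGANTCA occurred in 1 of the 23, in a Wnt5b window, and in 7.81% of all windows. The TCF/LEF letters CTTTGAT occurred in 2 of the 23, for Wnt5b and Wnt11, and in 3.73% of all. The E-box CACGTG occurred in 1, for Wnt9a, and in 7.15% of all. Matches of different motifs, and neighbouring GC boxes, may overlap. The windows of Fzd7, Wnt3a and Wnt5b are shown because these are the members with a window in the table that were lower at 2 h than in the non-wounded sample of the same number in 4 of 4 pairs, on the deposited and on the scaled values. The Fzd7 window is chr1:59481897-59482196 on the plus strand, with 66.7% GC, 24 CpG and 7 matches to the GC box, and the Wnt3a window is chr11:59290702-59291001 on the minus strand, with 86.3% GC, 45 CpG and 9 matches. Wnt5b has 3 windows on the minus strand: window A, chr6:119449337-119449636, with 2 matches to the GC box, window B, chr6:119467162-119467461, with 0, and window C, chr6:119544298-119544597, with 3. All are written 5′ to 3′, with GC boxes of either strand in capitals.
Fzd7: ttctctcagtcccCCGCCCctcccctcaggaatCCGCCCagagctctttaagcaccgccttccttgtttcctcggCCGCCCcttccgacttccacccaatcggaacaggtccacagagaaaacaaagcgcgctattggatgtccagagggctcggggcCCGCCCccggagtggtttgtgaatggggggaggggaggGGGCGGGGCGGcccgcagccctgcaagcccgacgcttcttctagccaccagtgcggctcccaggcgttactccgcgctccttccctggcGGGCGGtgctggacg
Wnt3a: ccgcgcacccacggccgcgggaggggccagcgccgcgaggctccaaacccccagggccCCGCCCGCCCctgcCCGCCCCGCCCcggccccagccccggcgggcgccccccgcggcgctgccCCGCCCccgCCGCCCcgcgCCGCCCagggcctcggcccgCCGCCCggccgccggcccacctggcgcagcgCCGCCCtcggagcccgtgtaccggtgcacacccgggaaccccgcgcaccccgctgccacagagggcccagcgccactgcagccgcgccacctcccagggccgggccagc
Wnt5b window A: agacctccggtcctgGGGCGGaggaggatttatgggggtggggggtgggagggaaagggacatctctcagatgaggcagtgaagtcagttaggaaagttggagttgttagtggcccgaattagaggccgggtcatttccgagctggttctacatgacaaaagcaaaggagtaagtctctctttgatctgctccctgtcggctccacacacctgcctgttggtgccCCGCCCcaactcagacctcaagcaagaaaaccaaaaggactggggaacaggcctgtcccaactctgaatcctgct
Wnt5b window B: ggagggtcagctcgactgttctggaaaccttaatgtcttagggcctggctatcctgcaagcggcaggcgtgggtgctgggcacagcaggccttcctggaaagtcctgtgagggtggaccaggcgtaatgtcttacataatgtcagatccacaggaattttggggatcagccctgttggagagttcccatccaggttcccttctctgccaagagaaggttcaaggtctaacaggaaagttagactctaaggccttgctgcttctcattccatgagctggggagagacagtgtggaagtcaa
Wnt5b window C: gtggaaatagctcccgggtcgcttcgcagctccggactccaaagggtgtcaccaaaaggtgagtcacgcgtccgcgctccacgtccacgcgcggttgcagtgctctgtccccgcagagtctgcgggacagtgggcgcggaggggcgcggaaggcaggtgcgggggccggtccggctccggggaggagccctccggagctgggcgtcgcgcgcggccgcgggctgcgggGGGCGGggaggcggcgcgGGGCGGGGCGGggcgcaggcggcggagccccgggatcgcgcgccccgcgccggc
The Fzd7 and Wnt3a windows and Wnt5b window B hold none of the AP-1, TCF/LEF or E-box letters, while Wnt5b window A holds the TCF/LEF letters and window C the AP-1 letters. A match is a description of the sequence only.

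At 2 h after wounding, none of the 29 probe sets passed an adjusted p of 0.05 against the non-wounded samples (limma over all 1246 probe sets, Benjamini-Hochberg adjustment, 4 samples against 4). In that fit 3 probe sets of the table passed, or 0.241%. At an unadjusted p under 0.05 there were 58 of 1246, or 4.65%, and 2 of the 29, Wnt5a and Fzd10 s_at. When the replicate number was entered as a block, 17 probe sets or 1.36% passed, again with none of the 29. Within the samples numbered 2 to 4 alone, where 38 probe sets or 3.05% passed, Wnt10a rose and Fzd10 x_at fell. The spread of the members at 2 h, by pair and in the fit, is shown in the plot of 2 h differences.

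**Figure D1:**
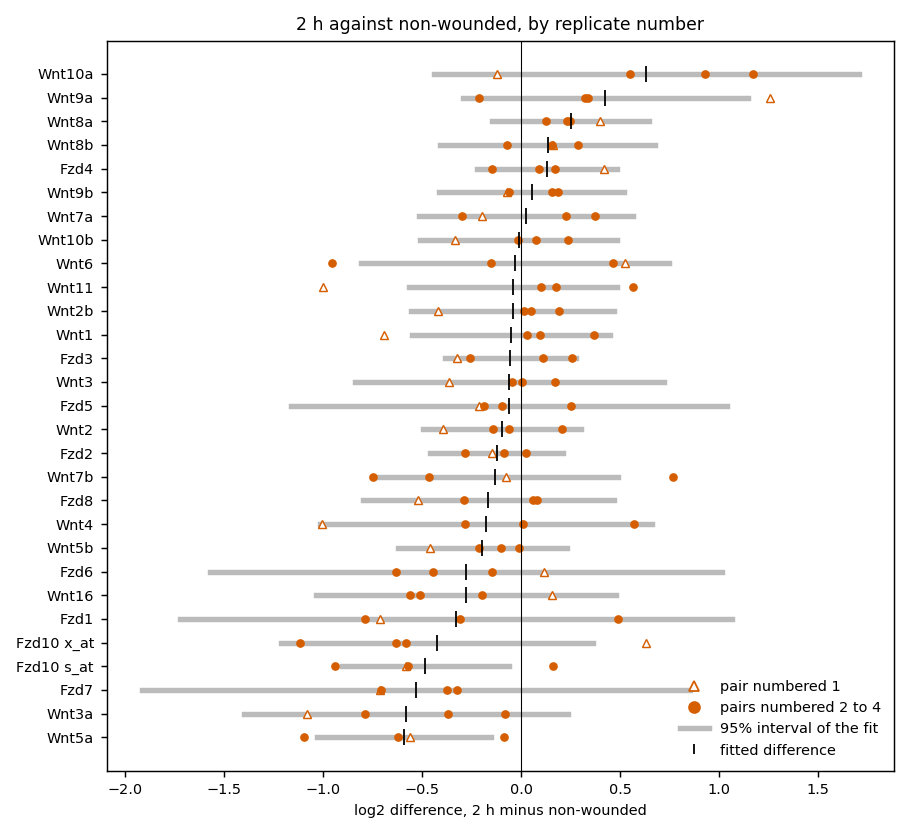
Log2 difference between 2 h and non-wounded samples for the 29 probe sets, with a point for each pair of samples of one replicate number (triangle, number 1), a black tick for the limma estimate and a grey bar for its 95% interval. Wnt10a has the highest estimate (0.63) and Wnt5a the lowest (-0.59), and the intervals of Wnt5a and Fzd10 s_at alone lie wholly on one side of 0.

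Wnt10a, a canonical ligand of epidermis and hair follicle whose loss causes ectodermal dysplasia in humans, had the largest range over the 12 samples, 2.96 on the log2 scale. Its log2 values were 7.25, 7.58, 7.69 and 8.13 in the non-wounded samples numbered 1 to 4, and 7.13, 8.51, 8.86 and 8.69 at 2 h. The single samples were 7.75 at 0 h and 6.64 at 4 h, and the samples at 30 min were 5.90 for number 1 and 7.82 for number 2. The 3 samples numbered 2 to 4 at 2 h were the highest of all 12, above every non-wounded sample, while number 1 at 2 h lay below them and below every non-wounded sample. Over 4 against 4 samples the difference was 0.63 ± 0.48 (log2, standard error), a 1.55-fold higher mean with a 95% interval from -0.44 to 1.70 (adjusted p = 0.998), and with the replicate block it was 0.63 ± 0.26 (adjusted p = 0.320). Within the numbers 2 to 4 it rose by 0.88 ± 0.17, or 1.84-fold (adjusted p = 0.0440), from 7.80 ± 0.29 to 8.68 ± 0.18 (SD, n = 3). After scaling, the 2 h sample was the higher in 4 of 4 pairs, by 0.26, 0.79, 1.15 and 0.42, a pattern that 7.46% of all probe sets showed.

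Between 30 min and 2 h the Wnt10a mean differed by 1.44 ± 0.59 on the log2 scale (unadjusted p = 0.0352, adjusted p = 0.980). Without the 30 min sample numbered 1 the difference was 0.48, and without the one numbered 2 it was 2.40. No probe set passed in this comparison (0% of 1246), and 27 had an unadjusted p under 0.05, Wnt10a being the only one of the 29.

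The genes whose values ran most like Wnt10a over the 12 samples, as deposited, were Hs6st1, a heparan sulfate 6-O-sulfotransferase (Pearson r = 0.93), Igfbp4, an IGF-binding protein (0.89), Cd207 (0.88), the tyrosylprotein sulfotransferase Tpst1 (0.88) and Wnt3 (0.87). On scaled values they were Cd83, a marker of mature dendritic cells (0.81), Hs6st1 (0.81), Igfbp4 (0.80), Ybx1 (0.77) and Tgfb1 (0.77). The 12 points share their sets of replicate numbers and their groups, so these are descriptions. The mean level of the 4 measured Langerhans cell markers (Ccr7, Cd207, Cd74 and Cd83) was 6.54 to 6.80 in non-wounded samples numbered 2 to 4 and 7.32 to 7.61 at 2 h. Cd207 and Cd83 were taken above for their likeness to Wnt10a, so a mean that holds them is no separate evidence. Within the numbers 2 to 4, Cd74 differed by 0.05 ± 0.12 and Ccr7 by 0.09 ± 0.09. Of the 4 markers 3 were higher at 2 h over all samples (54.5% of all probe sets were), none past the threshold. Cd207 rose with the replicate block, by 0.91 ± 0.17 (adjusted p = 0.0448), and Cd83 rose within the numbers 2 to 4, by 1.97 ± 0.24 (adjusted p = 0.0104). The part of Langerhans cells in the Wnt10a values was not tested, and in these bulk samples more cells of a type and more RNA per cell cannot be told apart.

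**Figure D2:**
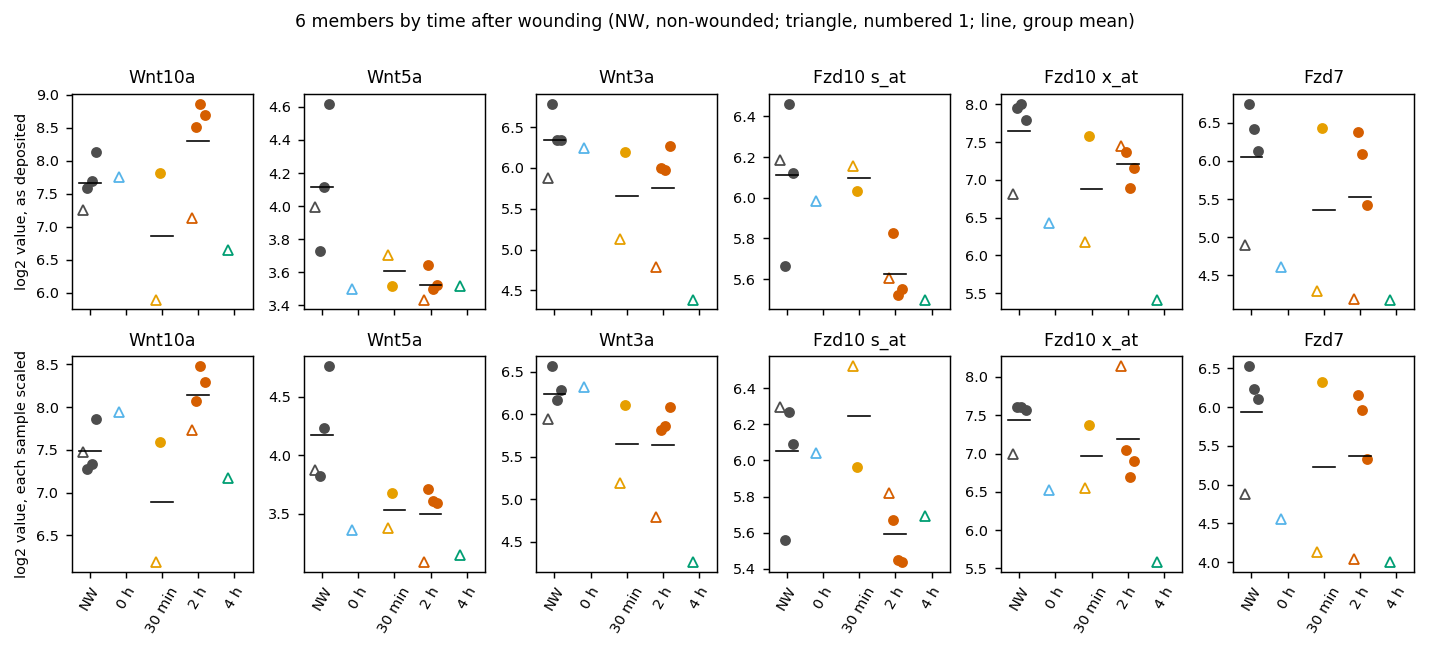
Log2 values of 6 probe sets in the non-wounded samples (NW) and at each time after wounding, as deposited (top) and after scaling (bottom), with triangles for samples numbered 1, circles for numbers 2 to 4 and lines for the means of groups with replicates. The Wnt10a circles at 2 h (8.51 to 8.86) lie above all other samples, and every wounded Wnt5a sample (3.43 to 3.70) lies below every non-wounded one (3.73 to 4.62).

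Wnt5a, the main ligand of the β-catenin-independent route, was the one member lower in all 8 wounded samples than in all 4 non-wounded ones. Its log2 values were 4.00, 3.73, 4.12 and 4.62 without a wound, 3.50 at 0 h, 3.70 and 3.52 at 30 min, 3.43, 3.64, 3.50 and 3.52 at 2 h and 3.51 at 4 h. The groups did not overlap, but the margin was narrow, 3.70 against 3.73. All 8 wounded values also lay below the sample medians over all probe sets. Those medians were 3.945 to 4.154 in numbers 2 to 4 and 4.247 to 4.318 in number 1. No detection calls come with the values. Of all probe sets 0.562% were lower in every wounded sample in this way, and 0.722% after scaling, where Wnt5a was again the one member. The 2 h difference was -0.59 ± 0.20, a 1.51-fold lower mean with a 95% interval from -1.03 to -0.15 (unadjusted p = 0.0138, adjusted p = 0.637), and -0.51 ± 0.24 at 30 min (adjusted p = 0.735). With the replicate block the adjusted p at 2 h was 0.171, and within the numbers 2 to 4 the difference was -0.60 ± 0.21 (adjusted p = 0.200). Leaving out single samples gave 2 h differences from -0.72 to -0.42, the smaller size without the non-wounded sample numbered 4. The mean level of 9 dermal fibroblast markers was 3.22 to 3.35 in non-wounded samples numbered 2 to 4 and 3.49 to 3.57 at 2 h. These levels lie below the medians of those samples over all probe sets, 3.945 to 4.154. Over all samples 9 of 9 markers were higher at 2 h (54.5% of all probe sets), and 6 of 9 after scaling (36.7% of all), with none past the threshold. The part of dermal cells in the Wnt5a values was not tested.

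Its paralog Wnt5b, also mainly β-catenin-independent, had values of 5.82 to 6.19 without a wound and 5.36 to 6.09 at 2 h, which overlapped. It was lower at 2 h in 4 of 4 pairs, as were Wnt3a, Wnt5a and Fzd7, a pattern shown by 11.6% of all probe sets and so by 4 of the 29. After scaling, 7 of the 29 were lower in 4 of 4 pairs (Wnt2, Wnt2b and Fzd2 in addition), against 20.0% of all probe sets. Wnt11, another ligand of the polarity route, was 4.34 ± 0.44 without a wound and 4.30 ± 0.25 at 2 h. Within the numbers 2 to 4 it was higher at 2 h by 0.28 ± 0.11 (adjusted p = 0.261), and in the pair numbered 1 it was lower, 3.97 against 4.97.

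Wnt3a, the ligand most used to activate β-catenin in culture, had log2 values of 5.87, 6.79, 6.34 and 6.35 without a wound and 4.79, 5.99, 5.97 and 6.26 at 2 h. It was 6.25 at 0 h, 5.12 and 6.20 at 30 min and 4.39 at 4 h. Among the numbers 2 to 4 every 2 h sample lay below every non-wounded one, and within the samples numbered 1 the value was lower at each later time from 0 h to 4 h. The 2 h difference was -0.58 ± 0.37, with a 95% interval from -1.40 to 0.24 (adjusted p = 0.998), and -0.58 ± 0.18 with the replicate block (adjusted p = 0.180). Without the 2 h sample numbered 1 it was -0.26.

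Wnt3, a canonical ligand of the hair shaft precursors, had values of 5.64, 6.01, 5.87 and 6.08 without a wound and of 5.27, 5.96, 5.87 and 6.25 at 2 h. At 30 min it was 4.42 in number 1 and 6.12 in number 2, and it was 5.96 at 0 h and 4.65 at 4 h. The low values at 30 min and 4 h were both of samples numbered 1. Without the 30 min sample numbered 2, Wnt3 was lower at 30 min by 1.48 on the log2 scale, and without number 1 it was 0.22 higher. Each of these differences rests on 1 sample at 30 min, without a replicate.

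Wnt4, expressed by epidermal keratinocytes, had values of 9.17, 9.38, 9.54 and 8.89 without a wound, 9.78 at 0 h, 7.82 and 9.29 at 30 min, 8.16, 9.38, 9.25 and 9.45 at 2 h and 8.81 at 4 h. Wnt7b, another keratinocyte ligand, had 9.92, 10.00, 9.43 and 9.02 without a wound, 9.78 at 0 h, 8.93 and 9.11 at 30 min, 9.84, 9.26, 8.96 and 9.78 at 2 h and 9.86 at 4 h. For both the 2 h samples overlapped the non-wounded ones, with differences of -0.18 ± 0.38 for Wnt4 and -0.13 ± 0.28 for Wnt7b, and quantile normalization turned the first and scaling turned the second to a positive sign. At 30 min both were lower in the mean, Wnt4 by -0.69 ± 0.46 and Wnt7b by -0.57 ± 0.34 (adjusted p = 0.737 and 0.735). Scaling turned Wnt7b at 30 min to 0.07 ± 0.75 in the group means. Against the non-wounded sample of the same number, Wnt7b was lower at 30 min in numbers 1 and 2. The differences were -0.99 and -0.89 as deposited and -0.35 and -0.69 after scaling. With the replicate block its limma p was under 0.05 unadjusted, as in 10.9% of all probe sets, and it did not pass after adjustment. Wnt4 was 0.02 ± 0.24 within the numbers 2 to 4 and 0.04 ± 0.48 without the 30 min sample numbered 1.

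Wnt6, an epithelial ligand and the genomic neighbour of Wnt10a, had values of 3.96, 5.61, 4.98 and 4.69 without a wound, 4.47 at 0 h, 3.88 and 4.74 at 30 min, 4.48, 4.65, 4.82 and 5.15 at 2 h and 4.90 at 4 h. Its 2 h difference was -0.03 ± 0.35, beside 0.63 ± 0.48 for Wnt10a. The other neighbouring ligands among the 29 were Wnt3a with Wnt9a (-0.58 and 0.42 at 2 h), Wnt9b with Wnt3 (0.05 and -0.06) and Wnt10b with Wnt1 (-0.01 and -0.05). None of these 4 pairs had both members called in any comparison.

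Wnt9a had values of 4.20, 4.17, 3.80 and 3.77 without a wound, 4.41 at 0 h, 4.37 and 4.01 at 30 min, 5.46, 3.95, 4.12 and 4.11 at 2 h and 4.43 at 4 h. The 2 h sample numbered 1 alone stood high, and within the numbers 2 to 4 the difference was 0.15 ± 0.13. Wnt16, a ligand best known in bone, had 4.35, 5.26, 5.48 and 5.78 without a wound, 5.16 at 0 h, 4.20 and 4.68 at 30 min, 4.51, 4.70, 4.97 and 5.58 at 2 h and 4.16 at 4 h. It was lower at 30 min by -0.78 ± 0.41 and at 2 h by -0.28 ± 0.34 (adjusted p = 0.735 and 0.998), and the 2 h and non-wounded values overlapped.

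Wnt8a, a ligand of the early embryo, had low and close values: 2.93, 2.99, 2.86 and 2.78 without a wound and 3.33, 3.11, 3.09 and 3.03 at 2 h. All 4 samples at 2 h lay above all 4 non-wounded ones, as deposited, which 2.01% of all probe sets showed, and the difference was 0.25 ± 0.18 (exact permutation test, two-sided, p = 0.0286 unadjusted, the smallest that 4 against 4 samples allow; limma adjusted p = 0.998). Wnt5a had the same exact p, with all 4 samples at 2 h below all 4 non-wounded ones, as in 2.73% of all probe sets. Wnt8a was the one member higher at 2 h in 4 of 4 pairs as deposited, against 13.4% of all probe sets. After scaling, the highest non-wounded and lowest 2 h values overlapped.

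The remaining ligands differed little. Wnt1 (canonical, neural), Wnt2 and Wnt2b (mesenchymal ligands), Wnt7a, Wnt8b, Wnt9b and Wnt10b (a ligand of the hair placode) had 2 h differences between -0.10 (Wnt2) and 0.13 (Wnt8b). Their standard errors were 0.18 to 0.24, and the 2 h and non-wounded ranges of each overlapped. Their signs are not settled: 4 of the 7 turned within the numbers 2 to 4 (Wnt1, Wnt2, Wnt2b and Wnt10b), and Wnt7a and Wnt9b turned under scaling and under quantile normalization.

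**Figure D3:**
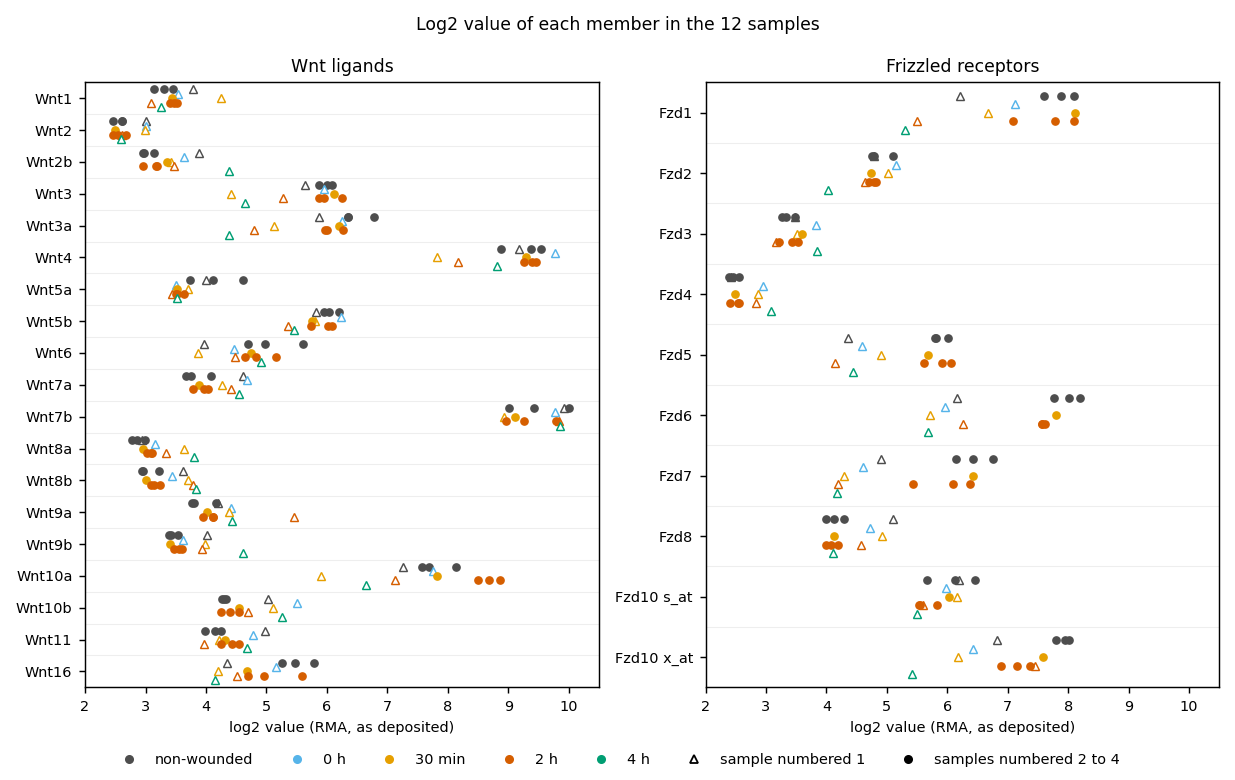
Log2 value, as deposited, of each of the 19 ligand and 10 receptor probe sets in the 12 samples, coloured by group, with open triangles for samples numbered 1 and filled circles for numbers 2 to 4. In Fzd5, Fzd6 and Fzd7 the triangles (4.15 to 4.91, 5.67 to 6.27 and 4.18 to 4.90) lie apart from the circles (5.61 to 6.06, 7.56 to 8.19 and 5.43 to 6.75).

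In several receptors the samples numbered 1 lay apart from the others at every time. Fzd7, a receptor for canonical Wnts in stem cells, had values of 4.90, 6.75, 6.42 and 6.13 without a wound and 4.19, 6.37, 6.09 and 5.43 at 2 h. It was 4.61 at 0 h, 4.29 and 6.43 at 30 min and 4.18 at 4 h. All 5 samples numbered 1 lay below the 7 others, and within each number the 2 h sample was the lower, by -0.71, -0.38, -0.33 and -0.71. The difference at 2 h was -0.53 ± 0.62 without the block, with a 95% interval from -1.91 to 0.85 (adjusted p = 0.998), and -0.53 ± 0.13 with it, with an interval from -0.84 to -0.22 (adjusted p = 0.122).

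Fzd6, a receptor of the polarity route that orients hairs, had 6.15, 7.76, 8.19 and 8.02 without a wound, 5.96 at 0 h, 5.71 and 7.80 at 30 min, 6.27, 7.61, 7.56 and 7.57 at 2 h and 5.67 at 4 h. The samples numbered 1 again lay below all others. Among the numbers 2 to 4 every 2 h sample was below every non-wounded one, by -0.41 ± 0.12 in the mean (adjusted p = 0.154), while in the pair numbered 1 the 2 h sample was the higher. Over all samples the difference was -0.28 ± 0.58.

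Fzd1, a canonical receptor, had 6.22, 7.60, 8.10 and 7.88 without a wound, 7.12 at 0 h, 6.68 and 8.12 at 30 min, 5.50, 8.09, 7.79 and 7.09 at 2 h and 5.30 at 4 h. Fzd5, a receptor with roles in eye and gut epithelium, had 4.36, 5.81, 6.02 and 5.80, then 4.59, then 4.91 and 5.68, then 4.15, 6.06, 5.92 and 5.61, then 4.44 in the same order. In both the groups overlapped, with 2 h differences of -0.33 ± 0.62 and -0.06 ± 0.49. Both are among the 4 members, with Fzd6 and Fzd7, that were lower by more than 1 in the sample numbered 1 than in the mean of the others in the non-wounded group and in the 2 h group, against 13.2% of all probe sets, a share near that of the members.

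Fzd10, a receptor for canonical ligands, was read by both of its probe sets. The x_at set had 6.82, 7.95, 8.01 and 7.79 without a wound, 6.43 at 0 h, 6.18 and 7.58 at 30 min, 7.45, 7.37, 6.89 and 7.16 at 2 h and 5.41 at 4 h. The s_at set had 6.19, 5.67, 6.46 and 6.12 without a wound, 5.98 at 0 h, 6.16 and 6.04 at 30 min, 5.60, 5.83, 5.52 and 5.55 at 2 h and 5.50 at 4 h. Both were lower at 2 h in 3 of 4 pairs, with the exception in number 1 for x_at (0.63 higher) and in number 2 for s_at (0.16 higher). For x_at the difference was -0.42 ± 0.35 over all samples (adjusted p = 0.998), and within the numbers 2 to 4 it fell by 0.78 ± 0.14, or 1.71-fold (adjusted p = 0.0367). For s_at it was -0.48 ± 0.19 over all samples, with a 95% interval from -0.91 to -0.06 (adjusted p = 0.801), and -0.45 ± 0.20 within the numbers 2 to 4 (adjusted p = 0.300). The probe sets thus had the same sign, and the call rested on x_at alone.

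Among the numbers 2 to 4, the 2 h samples lay wholly below the non-wounded ones in 4 of the 29 (Wnt3a, Wnt5a, Fzd6 and Fzd10 x_at), against 10.4% of all probe sets, and wholly above in 2 (Wnt8a and Wnt10a), against 14.7%. The 4 below are close to the background share and the 2 above are under it. Weighting each array by its fit to the others called 4 of the 29 at 2 h, namely Wnt10a (0.90 ± 0.16), Wnt5a (-0.57 ± 0.12), Fzd10 s_at (-0.62 ± 0.15) and Fzd10 x_at (-0.77 ± 0.14), with adjusted p of 0.00617, 0.0178, 0.0259 and 0.00727, where 130 probe sets or 10.4% of the table were called.

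The other receptors had small differences at 2 h. Fzd2, a receptor that also takes Wnt5a, differed by -0.12 ± 0.15, Fzd3, a receptor of the polarity route, by -0.05 ± 0.15, Fzd4, which also binds Norrin in blood vessels of the retina, by 0.13 ± 0.16, a sign that scaling turned, and Fzd8 by -0.17 ± 0.28. In each the 2 h and non-wounded ranges overlapped. Over the receptors as a whole, 9 of 10 probe sets had a lower mean at 2 h, with a median of -0.22, beside 45.5% of all probe sets and a median of 0.03. After scaling, 10 of 10 were lower (63.3% of all), and within the numbers 2 to 4 alone 8 of 10 (44.5% of all). Without the 2 h sample numbered 1, 5 of 10 were lower (54.3% of all) with a median of -0.04, and Fzd1, Fzd3, Fzd5 and Fzd6 turned to a positive sign. That setting keeps the non-wounded sample numbered 1, which differed from the mean of numbers 2 to 4 by -1.64 (Fzd1), -1.52 (Fzd5) and -1.84 (Fzd6), but by 0.13 for Fzd3. It is therefore unbalanced. Without the non-wounded sample numbered 1 instead, which is unbalanced the other way, 8 of 10 were lower (41.5% of all), with a median of -0.45. Neither setting can decide the receptors' direction, which is not settled. The ligands had a lower mean at 2 h in 13 of 19 over all samples but in 6 of 19 within the numbers 2 to 4, and their direction is not settled either. The receptors' counts describe means of which none passed the threshold over all samples.

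At 30 min none of the 29 passed against the non-wounded samples, nor did any probe set (0% of 1246), with 63 at an unadjusted p under 0.05 and none of these among the 29. The smallest unadjusted p was that of Wnt5a (0.0633). The comparison has 2 samples, numbered 1 and 2, against 4, and the smallest exact permutation p it allows is 0.0667. For Wnt10a the samples were 1.35 lower and 0.24 higher than the non-wounded sample of their number, and for Fzd7 0.61 and 0.32 lower.

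The 0 h and 4 h samples have no replicate, so their values are described within the samples numbered 1. There, on scaled values, 5 of the 29 were lower at each later time from 0 h over 30 min and 2 h to 4 h, against 5.62% of all probe sets: Wnt2, Wnt3a, Fzd1, Fzd2 and Fzd7. Wnt3a went from 6.32 through 5.20 and 4.80 to 4.27, beside 5.95 without a wound. Fzd1 went from 7.27 through 7.19 and 5.69 to 5.44, beside 6.33, and Fzd2 from 5.15 through 5.06 and 4.61 to 3.80, beside 4.76. Wnt10a did not follow an order, at 7.94, 6.19, 7.74 and 7.17, beside 7.47. With 1 sample at each time, no difference between these times has a replicate check.

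**Figure D4:**
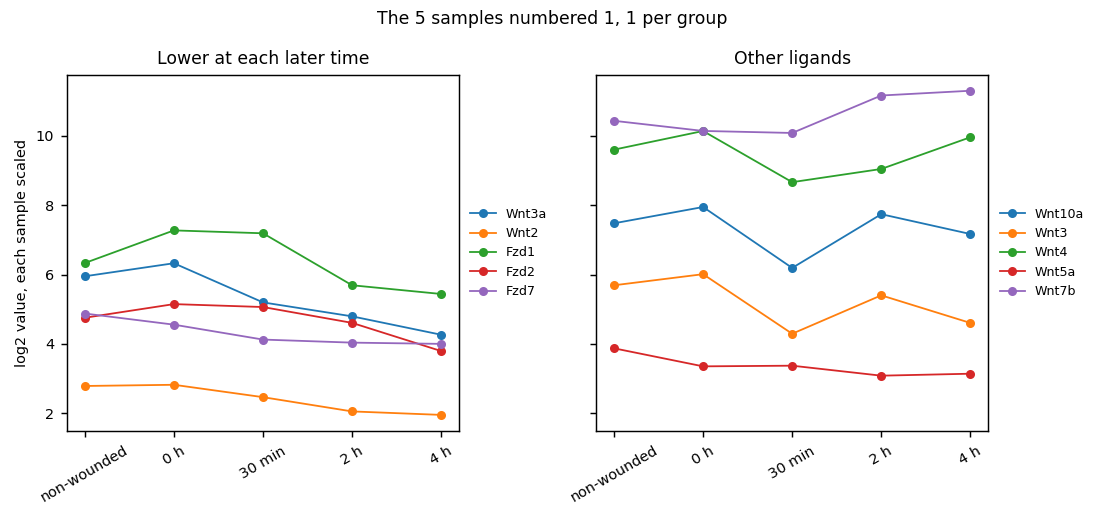
Scaled log2 values of 10 probe sets in the 5 samples numbered 1, in order from non-wounded to 4 h, with 1 sample at each point. The 5 probe sets on the left are lower at each later time from 0 h to 4 h (Wnt3a from 6.32 to 4.27), and on the right Wnt10a, Wnt3 and Wnt4 have their lowest value at 30 min (6.19, 4.30 and 8.66).

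Genes around the pathway were counted from lists. Of 57 pathway components outside the rule none was measured. Of 34 genes known as Wnt targets in various tissues 13 were measured, and none was called at 2 h over all samples. In the mean 11 were higher and 2 lower (median 0.12), beside 54.5% of all probe sets higher (median 0.03). After scaling 9 were higher and 4 lower (median 0.04), beside 36.7% of all probe sets higher (median -0.06). With the replicate block Vegfa, the vascular growth factor, rose by 1.23 ± 0.18 (adjusted p = 0.0265), and within the numbers 2 to 4 Vegfa rose by 1.41 ± 0.13 (adjusted p = 0.00276) and Fst, the activin antagonist follistatin, by 1.22 ± 0.22 (adjusted p = 0.0392). Both also respond to other signals, such as hypoxia for Vegfa. The adhesion receptor Cd44 was higher by 1.02 ± 0.96 over all samples and by 1.02 ± 0.25 with the block (adjusted p = 0.122), the Notch receptor Notch2 by 0.15 ± 0.95 and Fgf20 by 0.35 ± 0.27, and the Notch ligand Jag1 was lower by -0.12 ± 0.83.

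Of 28 heparan sulfate proteoglycans and modifying enzymes, which hold Wnts at the cell surface, 27 were measured and none was called at 2 h (11 higher and 16 lower, median -0.02). The syndecans Sdc4, Sdc1 and Sdc2 differed by 0.36 ± 0.97, -0.54 ± 0.53 and -0.36 ± 0.24, agrin (Agrn) by -0.14 ± 0.55, and the glycosyltransferases Extl1 and Extl2 by -0.67 ± 0.29 and -0.56 ± 0.36. Of 22 morphogens of other families and their antagonists 19 were measured and none was called at 2 h (12 higher and 7 lower, median 0.03). Fgf22 differed by -0.64 ± 0.22 (adjusted p = 0.707), the BMP antagonist Nog by 0.39 ± 0.15 (adjusted p = 0.789), Shh by 0.25 ± 0.17, and the Notch ligands Jag2 and Dll1 by -0.21 ± 0.29 and -0.06 ± 0.77. In this comparison 54.5% of all probe sets were higher, with a median of 0.03. Of all probe sets 0.241% were called, so a count of none in lists of this size lies near the background.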

How the data were processed

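Total RNA was labelled by the Affymetrix procedure per the labels' protocols, and RMA (background correction, normalization and probe summary) is named in the submitters' processing notes. The sources used here give neither the array's name nor the software version. The authors deposited log2 values of 1246 probe sets in 12 samples. They come without detection calls, and precision is limited by how many arrays there are.

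Probe sets were named through RefSeq accessions of GRCm38.p6: 963 had 1 symbol, 283 none and 0 several. The main test was limma 3.58.1 (R 4.3.3), with group means of all 12 samples and Benjamini-Hochberg adjustment over all probe sets at a threshold of 0.05. It was also run on simulated data, with independent normal noise and a fixed shift per probe set in the samples numbered 1. The outcome is not given here, so that run is not used as support for the test. Separate mice are not stated for the replicates; the p-values then reflect only the spread among these samples, and that spread may be technical. Deviations of same-numbered 2 h and non-wounded samples from their group means correlated at 0.796, 0.449, 0.651 and 0.297 for numbers 1 to 4. The group means hold the samples numbered 1, so numbers 2 to 4 deviate from them together, and samples of different numbers were not correlated. These correlations therefore do not show pairing, and pairing by number was taken as an assumption.

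Alternatives were the replicate block, scaling, both together, quantile normalization, the numbers 2 to 4 alone, leaving out dim probe sets, a trend with a robust prior, array weights and leaving out each replicate. The members and lists were chosen with earlier results of these data known, and the counts of pairs, of groups that do not overlap and of ordered times were chosen after the values were seen. All members were named, with values in every sample for the 12 of largest range and those the results turn on. The 5 genes most like Wnt10a were taken by Pearson correlation. Up to 6 genes of a list were named, the 3 brightest and the 3 with the smallest p at 2 h. The other marker lists (keratinocyte, hair follicle, T cell, neutrophil, monocyte and macrophage, endothelial) had no gene called at 2 h over all samples. Of them the keratinocyte list alone had one with the replicate block or within the numbers 2 to 4, Areg (1.39 ± 0.22, adjusted p = 0.0297, and 1.64 ± 0.22, adjusted p = 0.0150). Areg was also the only 1 of the 5 measured keratinocyte markers with a higher mean at 2 h over all samples. The other 4 were lower (list median -0.54), beside 54.5% of all probe sets higher. Within the numbers 2 to 4, 2 of the markers were higher and 3 lower.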

Additional observations from a re-analysis of the deposited data

Results flagged for a closer look

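In 6 of 58 groups of 4 samples, 1 sample stood far from the other 3 relative to the group's range. The cut used gives about 1 in 20 for independent groups with normal spread. These groups share the same arrays, so that rate is no measure of chance here, and the share over all probe sets was not computed. At 2 h the sample numbered 1 was the lowest for Wnt4 (8.16, the others 9.25 to 9.45) and Fzd6 (6.27, the others 7.56 to 7.61) and the highest for Wnt9a (5.46, the others 3.95 to 4.12). Without a wound the sample numbered 1 was the lowest for Fzd5 (4.36, the others 5.80 to 6.02) and the highest for Wnt10b (5.02, the others 4.27 to 4.32). The sample numbered 2 was the highest without a wound for Fzd2 (5.10, the others 4.76 to 4.79).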

How the results depend on the processing

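At 2 h against non-wounded, 3 probe sets were called over all samples. The count was 17 with the replicate block, 10 with scaling and the block together, 7 with quantile normalization, 38 within the numbers 2 to 4, 8 with a trend and robust prior and 130 with array weights, and from 0 to 11 when single samples were left out, the 11 without the 2 h sample numbered 1. Scaling (4) and the filter on dim probe sets (3, of 934 tested) stayed within 1.5 times. Members called went from 0 to 2 within the numbers 2 to 4 and to 4 with array weights, and stayed at 0 with the replicate block. At 30 min against non-wounded 0 probe sets were called, and 0 to 74 when single samples were left out, with 0 to 1 members, the 74 and the 1 without the 30 min sample numbered 2. Between 2 h and 30 min 0 were called, 1 with scaling, 1 with scaling and the block, 2 with quantile normalization, 2 within the numbers 2 to 4 and 0 to 9 when single samples were left out, the 9 without the 2 h sample numbered 1. The causes were not tested. The replicate block changed no call of a member. Where a group was left with 1 sample, it was assumed to vary like the others.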
